A study of Mus musculus with 4 samples.

Results

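The genes described here are the keratins, the components of desmosomes and a set of epidermal and hair follicle genes, measured in preparations of purified fat cells. They were chosen by symbol. The set took every gene of the expression table named Krt followed only by a number, every Dsg gene, the Dsc and Pkp genes, and Dsp, Jup, Perp, Tchh, Trp63, Evpl, Ppl, Lor, Sfn, Gata3 and Msx2. This gave 61 of the 18781 genes listed, 38 of them keratins. RNA was sequenced from mature adipocytes of C57BL/6 mice, an inbred strain, at postnatal day 30. The dermal group (2 libraries) came from the fat of the dorsal skin and the inguinal group (2 libraries) from the inguinal fat. In both, collagenase IV with dispase II was used to digest the tissue, and cells that floated after centrifugation were collected. No genetic change or treatment is named for either group, and the labels do not say whether libraries came from separate or pooled animals.

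Keratins form the intermediate filaments of epithelia. A type I and a type II keratin join as partners, so the genes are used in pairs, and each layer of the epidermis and each sheath of the hair follicle has its own pair. Desmosomes fasten these filaments to the cell membrane: desmogleins and desmocollins bridge the gap between cells, plakoglobin and plakophilins bind their tails, and desmoplakin ties the complex to keratin. Growing hair follicles, with their outer root sheath, inner root sheath and hair matrix, extend into the dermal fat beside its adipocytes. Adipocytes are not known to form desmosomes or to make epithelial keratins.

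The libraries held 10127125 to 12730013 reads assigned to genes, and 3 reads corresponded to 0.253 to 0.291 CPM, the authors' read counts scaled to a common library total and normalized. All values below are CPM unless stated, with 2 libraries per depot. Adipocyte markers were abundant in all libraries: 14 marker genes, led by Cfd and Fabp4, summed to between 52430 and 56729 CPM. Of these 14, Lep and Plin1 were higher in dermal libraries and 12 did not pass. The 61 members together summed to 323 and 227 CPM in dermal libraries 1 and 2, and to 266 and 336 CPM in inguinal libraries 1 and 2. In bulk RNA, fewer cells of a type and less RNA per cell cannot be told apart.

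Keratins of the basal layer, root sheaths and hair shaft were found mostly in the dermal libraries, and those of the inner root sheath and shaft were higher in dermal library 1 than in dermal library 2. Basal, inner root sheath and hair shaft keratins other than Krt36 reached at most 3 reads in an inguinal library. The plakophilin gene Pkp4 went the other way. Several members were read in every library, among them the broadly used Jup and Pkp2 and the epithelial keratins Krt10 and Krt79. Both dermal libraries lay above both inguinal libraries for 32 of the 61 members, where the background over all listed genes was 25.7%. Both inguinal libraries lay above both dermal libraries for 4 members, where the background was 25.9%. Only 21 members passed the filter of 1 CPM in at least 2 libraries and were tested (limma on log2(CPM + 0.5), adjusted over the 12797 genes tested). Of these, 11 were higher in dermal libraries (background 7.56%), 1 was higher in inguinal libraries (background 8.80%) and 9 did not pass. Without dermal library 1 the dermal count was 7, and without inguinal library 1 the inguinal count was 2, with Jup added. The dermal count is not independent of the filter, because 10 of the 21 were under 1 CPM in both inguinal libraries and passed through the dermal libraries alone. Among the other 11, 2 were higher in dermal libraries (Tchh and Trp63), 1 was higher in inguinal libraries (Pkp4) and 8 did not pass.

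**Figure D1:**
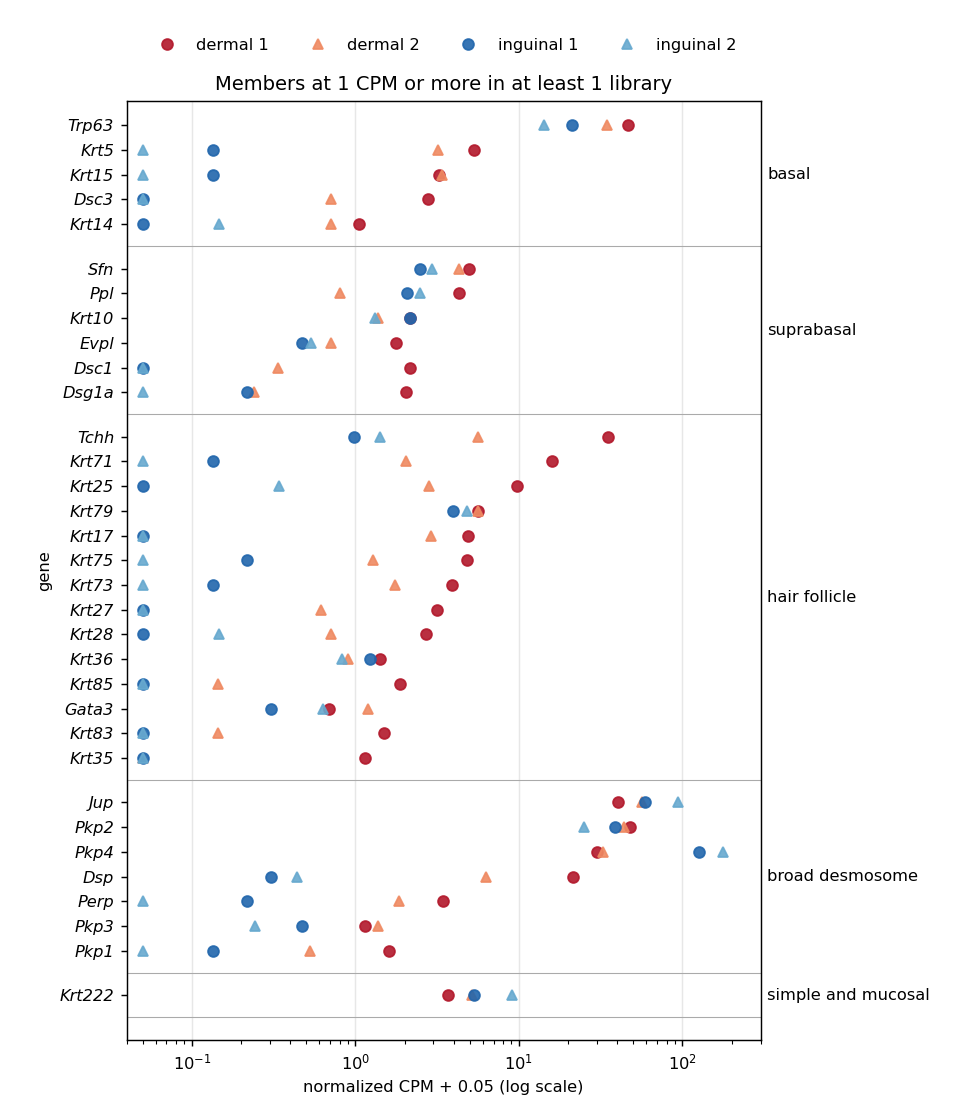
Normalized CPM plus 0.05 (log axis) of the 33 members that reached 1 CPM in at least 1 library. Each symbol is 1 library, red and orange for dermal, dark and light blue for inguinal. Hair follicle keratins other than Krt79 and Krt36 sit at or near 0 in inguinal libraries, and Pkp4 is at 30.04 and 32.4 CPM in dermal against 126 and 177 CPM in inguinal libraries.

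Summed by class, the size and direction of the depot difference varied, and in some classes depended on a few abundant genes. The 6 basal genes summed to 58.8 and 42.7 CPM in dermal libraries 1 and 2, and to 21.5 and 14.3 CPM in inguinal libraries 1 and 2. Most of that sum was Trp63, and the 5 others gave 12.6 and 7.97 CPM against 0.338 and 0.0969 CPM. The 26 hair follicle genes summed to 95.1 and 25.6 CPM in dermal against 6.76 and 8.24 CPM in inguinal libraries. Their dermal to inguinal ratio was 14.1 between the libraries numbered 1 and 3.11 between those numbered 2. The 12 suprabasal genes gave 18.2 and 8.63 CPM in dermal against 7.52 and 8.05 CPM in inguinal libraries, so dermal library 2 lay beside the inguinal ones. The 9 desmosomal genes of broad use summed to 146 and 143 CPM in dermal against 224 and 296 CPM in inguinal libraries. Pkp4 set that direction: the log2 ratio of dermal to inguinal was -0.85 with it and 0.0522 without it, where the depots overlapped. The 6 genes other than Pkp2, Pkp4 and Jup gave 27.9 and 10.1 CPM in dermal against 1.18 and 0.582 CPM in inguinal libraries. With all their genes kept, the depots did not overlap for these 4 classes. The exact two-sided permutation test gave p = 0.333, the smallest that 2 against 2 libraries allow. The 8 simple and mucosal epithelial keratins overlapped, at 4.92 and 7.02 CPM against 5.91 and 9.31 CPM (exact permutation p = 0.667). Krt222 made up 74.1% and 73.0% of the dermal sums and 88.6% and 96.9% of the inguinal sums. Without it both dermal sums lay above both inguinal sums, on few reads.

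**Figure D2:**
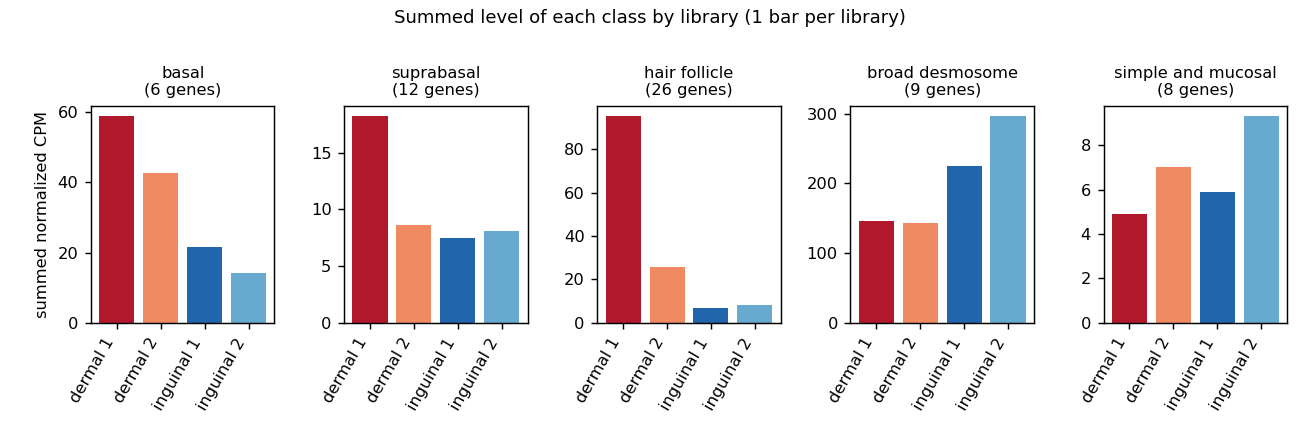
Summed normalized CPM of each class of members, 1 bar per library, with a separate linear axis from 0 for each class. The hair follicle class stands at 95.1 CPM in dermal library 1, 25.6 CPM in dermal library 2 and under 10 CPM in both inguinal libraries. The broad desmosome class is higher in the inguinal libraries, but without Pkp4 its depots overlap.

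Basal keratins were read in both dermal libraries and almost not at all in inguinal libraries. Krt5, the type II keratin of basal keratinocytes and the outer root sheath, measured 5.28 and 3.13 CPM in dermal libraries, and 0.0844 and 0 CPM in inguinal libraries. Its log2 fold change was 3.08 (SE 0.36, limma adjusted p = 0.00422), from 91 dermal reads against 1 inguinal read. Krt15, a type I keratin of basal cells and of the stem cell region of the follicle, measured 3.19 and 3.32 CPM in dermal libraries and 0.0844 and 0 CPM in inguinal libraries, giving a log2 fold change of 2.80 (SE 0.32, limma adjusted p = 0.00378). The dermal libraries agreed closely for Krt15, with 35 reads in each. Krt14, the usual type I partner of Krt5, had only 11 and 7 dermal reads and 0 and 1 inguinal reads, 1.00 and 0.664 CPM against 0 and 0.0969 CPM, and was below the filter. Per kilobase of exon, the type I keratins Krt14 and Krt15 together stood at 2.37 and 2.26 CPM per kb in dermal libraries, and Krt5 at 2.40 and 1.42 CPM per kb. The desmocollin gene Dsc3, used in basal and lower layers, measured 2.73 and 0.664 CPM in dermal libraries and had 0 inguinal reads. With the floor of 3 reads over the inguinal libraries together, Dsc3 was at least 12.7-fold higher in dermal libraries, or at least 4.90-fold without dermal library 1. Its partner desmoglein gene Dsg3 had 6 dermal and 2 inguinal reads.

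Trp63 behaved unlike the basal keratins. It encodes p63, the transcription factor that maintains basal keratinocytes, and it was read in every library, at 46.2 and 34.7 CPM in dermal against 21.2 and 14.2 CPM in inguinal libraries. The groups did not overlap, and the log2 fold change was 1.19 (SE 0.24, limma adjusted p = 0.0225). The call was lost without dermal library 1, where the log2 fold change was 0.98 and the adjusted p = 0.0927. With 251 and 146 inguinal reads beside 1 and 0 of Krt5, the Trp63 signal of inguinal libraries was not accompanied by basal keratins. Its dermal to inguinal ratio was 2.27 (95% counting interval 2.01 to 2.56), against 93.7 for Krt5 (16.4 to 3740).

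Suprabasal and cornified layer genes were mixed between the depots. Krt10, the type I keratin of differentiating epidermis, measured 2.09 and 1.33 CPM in dermal against 2.11 and 1.26 CPM in inguinal libraries, giving a log2 fold change of 0.02 (SE 0.35, limma adjusted p = 0.974). It overlaps the gene Gm11940 on the opposite strand. Lor, which encodes loricrin, the main protein of the cornified envelope, had 1 read in dermal library 1 and 1 in inguinal library 2. Sfn, the 14-3-3 sigma gene of stratified epithelia, measured 4.92 and 4.27 CPM against 2.45 and 2.91 CPM. Its groups did not overlap, but it did not pass (log2 fold change 0.68, SE 0.25, limma adjusted p = 0.112). Ppl, encoding the plakin periplakin, was at 4.28 and 0.759 CPM in dermal libraries and 2.03 and 2.42 CPM in inguinal libraries. Dermal library 1 was thus the highest and dermal library 2 the lowest of the libraries for Ppl, and the log2 difference of dermal from inguinal was 0.92 between the libraries numbered 1 and -1.22 between those numbered 2. Its fitted change did not pass (limma adjusted p = 0.892).

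Dsc1 and Dsg1a were detected largely in dermal library 1, while Evpl was highest there but read in every library. Dsc1, a desmocollin of upper layers that the inner root sheath also uses, measured 2.09 CPM in dermal library 1 and 0.285 CPM in dermal library 2, with 0 inguinal reads, and was at least 8.92-fold higher in the dermal libraries against the same floor. That limit rests on dermal library 1, since dermal library 2 held 3 reads, the floor itself. The desmoglein gene Dsg1a measured 2.003 and 0.190 CPM in dermal against 0.169 and 0 CPM in inguinal libraries. It shares 35.0% of its 50-base stretches with other transcripts, mainly Dsg1b, so its reads are uncertain between the copies. Evpl, encoding envoplakin, measured 1.73 and 0.664 CPM in dermal libraries and 0.422 and 0.485 CPM in inguinal libraries. All 3 were below the filter. Krt80, a type II keratin of differentiating epithelia, was not highest in dermal library 1. It had 7 and 10 dermal reads against 2 and 4 inguinal reads. The suprabasal members Krt9, Krt77, Krt78 and Dsg1b had at most 2 reads in a library, too few to order the libraries.

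Among the 5 class sums, that of hair follicle genes had the highest dermal to inguinal ratio, 8.05. That order rests on Trp63, which fills the basal sum: without it the basal ratio was 47.2, against 17.0 for hair follicle genes without Tchh and Krt79. The basal ratio stood on 4 and 1 inguinal reads. The hair follicle ratio stood on 23 and 22, of which Krt36 gave 14 and 8. The genes left out differ in kind, so the trimmed ratios do not settle an order. Tchh encodes trichohyalin, the protein that hardens the inner root sheath and the medulla. It was at 34.9 and 5.597 CPM in dermal libraries and 0.929 and 1.36 CPM in inguinal libraries. Krt71, an inner root sheath type II keratin, measured 15.9 and 1.99 CPM against 0.0844 and 0 CPM. Krt25, an inner root sheath type I keratin, measured 9.74 and 2.75 CPM against 0 and 0.291 CPM. For all 3 the depots did not overlap, and dermal library 1 stood far above the others. Their log2 fold changes were 3.17 for Tchh (SE 0.75, limma adjusted p = 0.0353), 3.57 for Krt71 (SE 0.81, limma adjusted p = 0.0318) and 3.20 for Krt25 (SE 0.57, limma adjusted p = 0.0158). Without dermal library 1 these log2 fold changes fell to 1.90, 2.20 and 2.37, and without dermal library 2 they were 4.44, 4.93 and 4.03. The Krt71 call was lost with no filter (adjusted p = 0.0535) and with no intensity trend (adjusted p = 0.0593), and the Tchh call likewise (0.0611 and 0.0666).

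Krt73, Krt27 and Krt28, keratins of the same sheath, were also higher in dermal library 1 than in dermal library 2, Krt73 by a ratio of 2.24 (95% counting interval 1.26 to 4.13) against 7.996 (5.07 to 13.2) for Krt71. Krt73, type II, measured 3.82 and 1.71 CPM in dermal against 0.0844 and 0 CPM in inguinal libraries, giving a log2 fold change of 2.51 (SE 0.42, limma adjusted p = 0.0133), a call lost without dermal library 1 (2.03, adjusted p = 0.0524). Krt27 and Krt28, type I, were below the filter. Krt27 measured 3.09 and 0.569 CPM in dermal libraries and had 0 inguinal reads. Krt28 measured 2.64 and 0.664 CPM in dermal libraries and 0 and 0.0969 CPM in inguinal libraries. Krt72 had 8 reads in dermal library 1 and 0 elsewhere, and Krt26 and Krt74 had 1 dermal read each, against 3 and 1 inguinal reads. Per kilobase, the 4 type I keratins of this sheath (Krt25 to Krt28) summed to 8.54 CPM per kb in dermal library 1 and 2.16 CPM per kb in dermal library 2. The 4 type II keratins (Krt71 to Krt74) summed to 9.47 and 1.70 CPM per kb. Both filament partners were therefore present in each dermal library.

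Keratins on either side of that sheath differed in how they were divided between the dermal libraries. Krt17, a type I keratin of the outer root sheath, measured 4.82 and 2.85 CPM in dermal libraries and had 0 inguinal reads (log2 fold change 3.08, SE 0.36, limma adjusted p = 0.00423). Against 3 reads over the inguinal libraries together, it was at least 28.5-fold higher in dermal libraries. Krt75, of the companion layer between the root sheaths, measured 4.73 and 1.23 CPM against 0.169 and 0 CPM (log2 fold change 2.38, SE 0.56, limma adjusted p = 0.0349). That call was lost without dermal library 1 (1.58, adjusted p = 0.127) and with no intensity trend (adjusted p = 0.0501), and the log2 fold change was 3.18 without dermal library 2. Hair shaft keratins other than Krt36 came almost wholly from dermal library 1. Krt85, an early hair matrix and cortex keratin, had 20 reads in dermal library 1, 1 in dermal library 2 and 0 in inguinal libraries (1.82, 0.0949, 0 and 0 CPM). Krt83 had 16, 1, 0 and 0 reads (1.46, 0.0949, 0 and 0 CPM), and 22.1% of its 50-base stretches occur in other transcripts, mainly Krt86. Krt35 had 12 reads in dermal library 1 (1.09 CPM) and 0 in the other libraries. Krt31, Krt32, Krt34, Krt81 and Krt84 had 1 to 5 reads in dermal library 1 and 0 elsewhere, and Krt82 had 1 read in dermal library 1 and 1 in inguinal library 1. The shaft desmoglein gene Dsg4 had 9 reads in dermal library 1, 0 in dermal library 2 and 1 in an inguinal library.

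A few genes placed in the hair follicle class did not share this pattern. Krt79, of the upper follicle and sebaceous duct, measured 5.55 and 5.597 CPM in dermal against 3.88 and 4.75 CPM in inguinal libraries and did not pass (log2 fold change 0.34, SE 0.23, limma adjusted p = 0.347). Krt36, a hair keratin by sequence, measured 1.37 and 0.854 CPM against 1.18 and 0.776 CPM, with overlapping groups (log2 fold change 0.12, SE 0.35, limma adjusted p = 0.849). Gata3, a transcription factor of the inner root sheath that T cells also express, measured 0.637 and 1.14 CPM in dermal against 0.253 and 0.582 CPM in inguinal libraries. Genes on the opposite strand overlap it. The 9 T cell genes, with Gata3 itself among them, summed to 6.28 and 8.25 CPM in dermal libraries and 4.81 and 5.53 CPM in inguinal libraries. Of these, Cd4, Cd28 and Il7r passed the filter, while the T cell receptor complex genes Cd3d, Cd3e and Cd3g were at 0 to 0.679 CPM. The part of T cell RNA in the Gata3 values was not tested. Msx2, a hair matrix transcription factor, had 8 and 5 dermal reads and 0 inguinal reads.

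Outer root sheath and basal keratins were divided more evenly between the dermal libraries than companion layer, inner root sheath and hair shaft genes. Grouping by compartment was made after the values were seen, and the ratios below compare 1 library with 1 library, so their 95% intervals cover counting error only. The grouping holds the keratins of each layer with Tchh and Dsg4. The 5 outer root sheath and basal keratins summed to 158 reads in dermal library 1 and 105 in dermal library 2, a ratio of normalized levels of 1.44 (1.12 to 1.87). The companion layer gene Krt75 had a ratio of 3.84 (2.06 to 7.68). The 9 inner root sheath genes summed to 780 and 140 reads, a ratio of 5.35 (4.46 to 6.45), or 4.70 (3.69 to 6.05) without Tchh. The 11 hair shaft genes summed to 83 and 11 reads, a ratio of 7.24 (3.84 to 15.1). Most of the dermal library 2 reads in that last sum were from Krt36, and the other 10 genes had 68 and 2 reads. The companion layer, inner root sheath and hair shaft intervals overlap one another. Dermal library 1 was higher for 4 of 5, 1 of 1, 9 of 9 and 11 of 11 genes, in that order of compartments. The background was 8161 of all 18781 listed genes and 49.1% of tested genes, while most genes of the grouping were below the filter. For Krt16, Krt26, Krt74, Krt32, Krt81, Krt82 and Krt84 the order of the dermal libraries rests on 1 read against 0. Members outside the grouping did not all follow it: the inner root sheath factor Gata3 had a ratio of 0.56 (0.187 to 1.54) and the basal gene Dsc3 one of 4.11 (1.77 to 11.1).

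**Figure D3:**
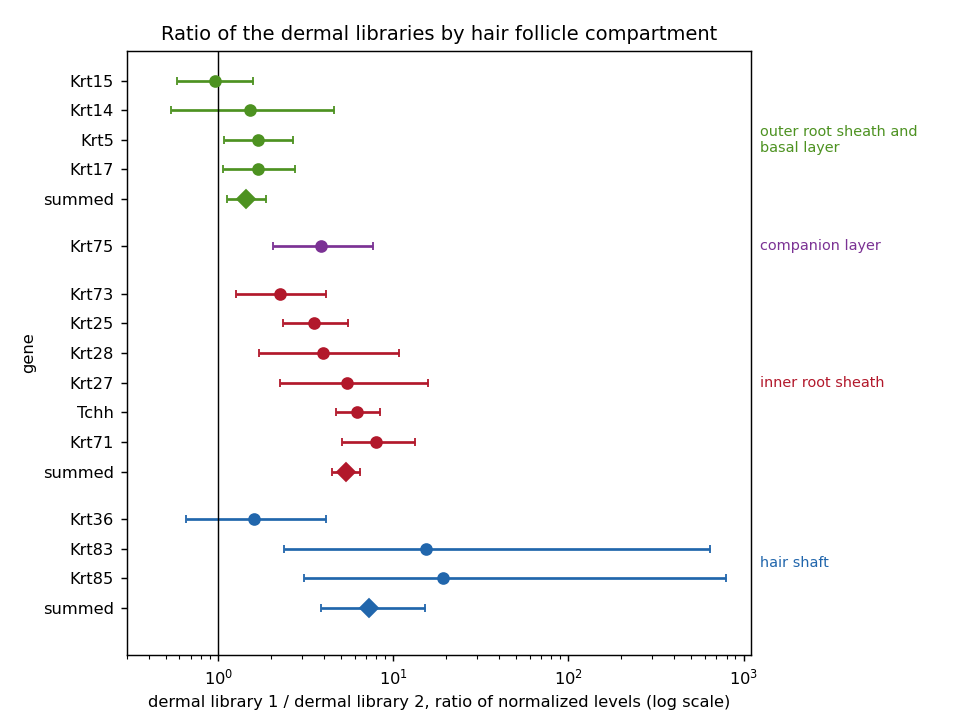
Ratio of normalized levels in dermal library 1 to dermal library 2 (log axis) for keratins and Tchh with at least 10 dermal reads and at least 1 read in dermal library 2. Circles are genes, diamonds the sum over all genes of a compartment, and bars 95% exact intervals of counting error. The outer root sheath sum is at 1.44, the inner root sheath sum at 5.35 and the hair shaft sum at 7.24.

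Set against all genes, the difference between the dermal libraries was large for some of these transcripts. Dermal library 1 exceeded dermal library 2 by at least 1 on the log2(CPM + 0.5) scale for 6 of the 21 tested members, where the background was 0.414% (53 of 12797 genes). No tested member exceeded it the other way by that amount, where the background was 1.49%. Krt71 and Tchh had the highest and the next highest values of all genes tested (2.72 and 2.54), and Ppl, Dsp, Krt25 and Krt75 were also among the 10 highest. The other genes among those 10 included Acly and Slc2a5, which were also higher in inguinal library 1 (7867 against 1569 CPM and 36.7 against 5.82 CPM). Krt71, Krt25, Krt75 and Dsp were too low in inguinal libraries for that comparison to be made. Tchh and Ppl could be compared, and neither was higher in inguinal library 1 (0.929 against 1.36 CPM and 2.03 against 2.42 CPM). Their ratios of inguinal library 1 to inguinal library 2 were 0.684 (counting interval 0.281 to 1.62) and 0.836 (0.457 to 1.53). Whether these differences between libraries share a cause was not tested. Between the dermal libraries Krt15 had a log2 difference of -0.05 and Krt79 of -0.01.

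Promoter sequence from RefSeq is shown for the 8 called members with an entry in its promoter table. Each line gives the 120 bases before the transcription start on the gene's strand (GRCm38.p6). Capitals mark TATAAA or ATAAAA, which overlap in TATAAAA, or the reverse complement of either.
Krt71 (chr15:101743098-101743217, minus strand): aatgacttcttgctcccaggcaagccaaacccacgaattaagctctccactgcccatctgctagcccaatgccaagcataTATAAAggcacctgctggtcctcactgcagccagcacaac
Krt25 (chr11:99322952-99323071, minus strand): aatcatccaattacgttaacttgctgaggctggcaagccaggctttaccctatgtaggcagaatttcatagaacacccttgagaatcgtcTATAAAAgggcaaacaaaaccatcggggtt
Krt73 (chr15:101802361-101802480, minus strand): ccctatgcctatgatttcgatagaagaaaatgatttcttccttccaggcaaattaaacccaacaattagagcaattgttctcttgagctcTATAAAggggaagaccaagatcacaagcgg
Krt75 (chr15:101573905-101574024, minus strand): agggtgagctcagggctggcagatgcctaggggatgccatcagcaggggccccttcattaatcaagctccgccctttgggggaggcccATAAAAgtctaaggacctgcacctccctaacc
Krt5 (chr15:101712906-101713025, minus strand): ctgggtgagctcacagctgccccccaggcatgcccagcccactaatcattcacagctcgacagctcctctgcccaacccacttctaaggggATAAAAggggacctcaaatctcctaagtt
Tchh (chr3:93442210-93442329, plus strand): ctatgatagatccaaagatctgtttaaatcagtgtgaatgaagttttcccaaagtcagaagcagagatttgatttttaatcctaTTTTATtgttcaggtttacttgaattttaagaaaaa
Dsp (chr13:38151174-38151293, plus strand): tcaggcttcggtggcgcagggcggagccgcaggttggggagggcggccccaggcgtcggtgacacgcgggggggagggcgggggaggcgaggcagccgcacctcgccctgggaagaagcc
Pkp4 (chr2:59160730-59160849, plus strand): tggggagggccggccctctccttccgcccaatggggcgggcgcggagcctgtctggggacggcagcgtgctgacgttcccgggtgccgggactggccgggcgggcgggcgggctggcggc

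TATAAA began 40 bases before the start in Krt71 and 30 bases before it in Krt25 and Krt73, and ATAAAA began 32 bases before it in Krt75 and 29 bases before it in Krt5. In Tchh the only match was ATAAAA on the other strand. Neither was found in the windows of Dsp and Pkp4, which held 77.5% and 80.0% G and C, against a median of 54.2% over all windows. The 5 keratin windows held 40.0% to 59.2% G and C, and that of Tchh 28.3%. Searched on both strands, TATAAA was present in 6.34% and ATAAAA in 8.30% of the 32851 windows in the table. Of the 61 members, 34 had an entry, and 12 of these had TATAAA and 16 ATAAAA. These are matches of letters. Pkp4 has 2 starts in the table, of which the upstream one is printed.

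Desmosomal genes of broad use split between the depots gene by gene. Dsp encodes desmoplakin, the link to keratin, and measured 21.3 and 6.26 CPM in dermal libraries, and 0.253 and 0.388 CPM in inguinal libraries. Dermal library 1 was the highest, and the depots did not overlap. Its log2 fold change was 3.89 (SE 0.54, limma adjusted p = 0.0069), or 3.05 without dermal library 1 and 4.74 without dermal library 2. Perp, a membrane protein gene of desmosomes and a p63 target, measured 3.37 and 1.80 CPM against 0.169 and 0 CPM (log2 fold change 2.37, SE 0.40, limma adjusted p = 0.0133). This call was lost without dermal library 1 (1.99, adjusted p = 0.0571). The plakophilin genes of epidermis were low. Pkp1 measured 1.55 and 0.474 CPM in dermal against 0.0844 and 0 CPM in inguinal libraries, below the filter, and Pkp3 measured 1.09 and 1.33 CPM against 0.422 and 0.194 CPM. The Pkp3 groups did not overlap, but it did not pass (log2 fold change 1.09, SE 0.35, limma adjusted p = 0.0852).

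Pkp4 was the member higher in inguinal libraries. It encodes p0071, an armadillo protein of adherens junctions and desmosomes, and measured 30.04 and 32.4 CPM in dermal against 126 and 177 CPM in inguinal libraries. The dermal libraries were level and both lay far below the inguinal ones, with a log2 fold change of -2.24 (SE 0.18, limma adjusted p = 0.00184). Jup encodes plakoglobin, which adherens junctions share with desmosomes. It measured 40.3 and 56.2 CPM against 58.9 and 93.8 CPM, without overlap, and did not pass (log2 fold change -0.64, SE 0.26, limma adjusted p = 0.146). Without inguinal library 1 its log2 fold change was -0.97 with adjusted p = 0.00784. Pkp2, the plakophilin also used in heart, measured 47.6 and 43.9 CPM in dermal against 38.4 and 25.0 CPM in inguinal libraries and did not pass (log2 fold change 0.55, SE 0.22, limma adjusted p = 0.136), or 0.86 with adjusted p = 0.00645 without inguinal library 1. All 10 endothelial markers, among them Kdr, Flt1, Cdh5 and Pecam1, were higher in inguinal libraries, and summed to 452 and 499 CPM in dermal against 1626 and 2480 CPM in inguinal libraries. Endothelial cells also use plakoglobin and p0071 at their junctions. The part of endothelial RNA in the Pkp4 and Jup values was not tested.

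Per kilobase of exon, the mean level over both dermal libraries was highest for members present in both depots. Pkp2 (mean 8.54 CPM per kb), Jup (7.496), Pkp4 (5.47) and Trp63 (4.82) led, followed by Krt71 (4.10), Tchh (3.47) and Krt25 (3.14). The SD of Krt71 and Tchh over the dermal libraries exceeded their means in CPM (8.96 ± 9.86 and 20.2 ± 20.7, n = 2), so the order is not separated beyond the spread. In dermal library 1 alone Krt71 stood at 7.29 CPM per kb, above Jup at 6.27, Trp63 at 5.51 and Pkp4 at 5.26, and Tchh stood at 5.99. In inguinal libraries Pkp4 stood at 26.5, Jup at 11.9, Pkp2 at 5.92 and Trp63 at 2.11 CPM per kb, while Krt71 was at 0.0193 and Krt25 at 0.0731 CPM per kb. Dsg2 and Dsc2, the desmosomal cadherin genes of simple epithelia and heart, stayed at 6 or fewer reads in each library.

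**Figure D4:**
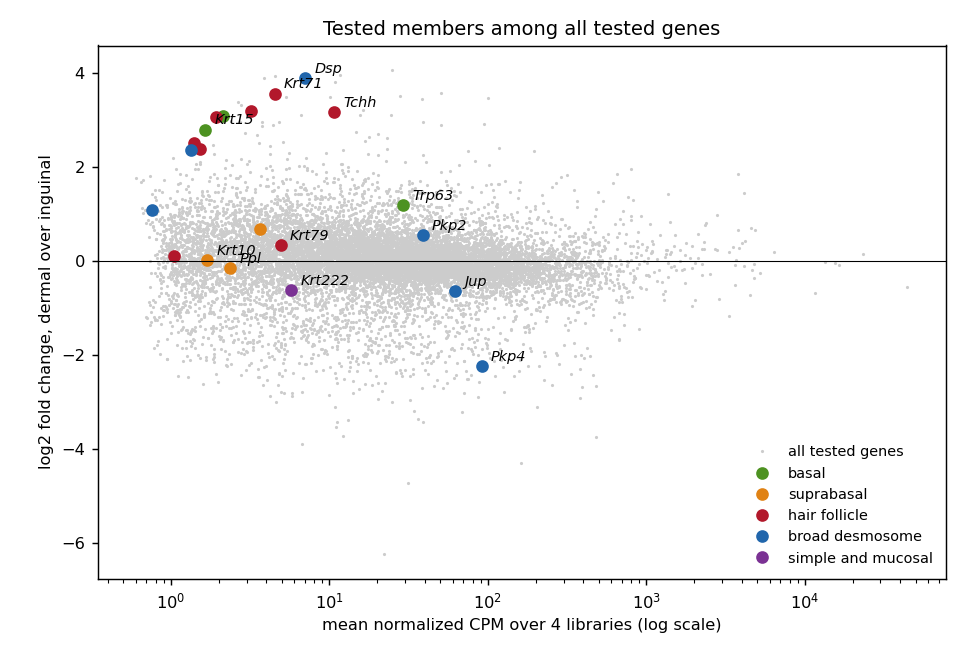
Log2 fold change of dermal over inguinal libraries, on the log2(CPM + 0.5) scale, against mean normalized CPM (log axis) for all 12797 tested genes (grey) and the 21 tested members (coloured by class). Basal keratins and the hair follicle keratins Krt17, Krt25, Krt71, Krt73 and Krt75 lie at the upper left, Krt79 and Krt36 lie near 0, Dsp is at 3.89 and Pkp4 at -2.24.

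Keratins of simple and mucosal epithelia were scarce in both depots. Krt8 and Krt4 each had 3 and 2 dermal reads and 0 inguinal reads, Krt19 had 3 reads in each depot, and Krt7 had 1 dermal and 2 inguinal reads. Krt20 had 7 and 10 dermal reads and 2 and 0 inguinal reads. The only member of this class at 1 CPM was Krt222, a short type I keratin-like gene, at 3.64 and 5.12 CPM in dermal against 5.24 and 9.02 CPM in inguinal libraries, giving a log2 fold change of -0.61 (SE 0.32, limma adjusted p = 0.233). Of all 61 members, 28 stayed under 1 CPM in every library, with at most 10 reads in any of them, and 18 had at most 3 reads in each depot. Krt9 and Krt13 had 0 dermal reads, and 17 members had 0 inguinal reads. Over all 18781 listed genes, 1698 had 0 dermal reads and 848 had 0 inguinal reads.

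Other epithelial genes, from lists chosen with earlier results known, were also low. Of 15 genes of epithelial adhesion and identity, 0 reached the filter, and their sum was 8.74 and 3.13 CPM in dermal against 1.27 and 2.62 CPM in inguinal libraries. By the mean over all libraries the highest were Cdh1, which encodes E-cadherin (1.18, 0.474, 0.0844 and 0.388 CPM), and Cldn1 (1.00, 0.664, 0.422 and 0.388 CPM). Esrp1, an epithelial splicing regulator gene, was higher than both in dermal library 1 (1.46, 0.569, 0 and 0.0969 CPM; chosen after its values were seen). Epcam did not exceed 2 reads in a library. Krt6a, which the symbol rule did not take, had 2 reads in dermal library 1 and 0 elsewhere. Of 22 cornified envelope genes listed, 4 were tested and only Sbsn, encoding suprabasin, passed, at 35.6 and 42.4 CPM in dermal against 12.6 and 14.3 CPM in inguinal libraries, giving a log2 fold change of 1.498 (SE 0.17, limma adjusted p = 0.00368). Tgm1, the keratinocyte transglutaminase gene, measured 2.64 and 1.14 CPM against 3.04 and 2.71 CPM and did not pass.

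Of 9 hemidesmosome and basement membrane genes, 8 were tested, of which 2 were higher in inguinal libraries and 6 did not pass. Those 2 were the integrin genes Itga6 (183 and 220.0 CPM against 338 and 393 CPM) and Itga3 (3.64 and 3.42 CPM against 7.01 and 9.99 CPM). Dst was the most abundant (1608 and 1438 CPM against 1209 and 1476 CPM) and did not pass. Of 24 other genes of the hair matrix and sheaths listed, 2 were tested, and both, Cux1 (44.8 and 43.4 CPM against 121 and 124 CPM) and Bambi (4.01 and 4.84 CPM against 10.6 and 15.5 CPM), were higher in inguinal libraries. Both are widely expressed outside hair. Of the 24, 10 had 0 inguinal reads and none had 0 dermal reads, where 848 and 1698 of all 18781 listed genes did. The 22 genes of that list not tested were below the filter. They included Hoxc13, the hair keratin regulator, at 0.546 and 0.664 CPM in dermal libraries with 0 inguinal reads, and the hair matrix gene Dlx3, at 1.46 and 0.759 CPM against 0 and 0.0969 CPM, both chosen after their values were seen.

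Markers of other cells of skin and fat gave the following values. Of 14 dermal papilla genes listed, 8 were tested and 4 rose in dermal over inguinal libraries, led by Hhip (5.19 and 11.1 CPM against 0.253 and 1.07 CPM) and Prlr (94.7 and 118 CPM against 61.8 and 69.2 CPM). Trps1, abundant in that list, did not pass (adjusted p = 0.0503). Of 11 melanocyte genes, 5 were tested and Kit was higher in inguinal libraries. The other 4 had positive estimates of dermal over inguinal and did not pass. Their log2 fold changes were 0.81 for Pmel, 0.73 for Dct, 0.18 for Tyr and 0.09 for Mitf. Of 12 sebocyte genes, 5 were tested, Soat1 was higher in dermal and Cidea in inguinal libraries, and the abundant Mgst1 and Plin2, which adipocytes also express, did not pass. Of 7 mesothelial genes listed, 2 were tested, Lrrn4 and Cldn15,, and neither passed. Of 8 mammary epithelial genes listed, 3 were tested and Areg was higher in dermal libraries (6.74 and 5.98 CPM against 0.929 and 0.291 CPM), while Muc1 did not pass. All 9 macrophage markers were tested, and 8, led by Csf1r and C1qc, with Lyz2 and Mrc1 the most abundant, were higher in dermal libraries. Of 9 T cell genes, 3 were tested and Cd4 was higher in dermal libraries, and Il7r did not pass. Of 10 skeletal muscle genes, 8 were tested and Ckm was higher in dermal libraries, while Myl1 and Acta1 did not pass. Among these lists, dermal libraries 1 and 2 summed to 347 and 395 CPM for dermal papilla genes and 1594 and 1501 CPM for macrophage markers. Most of the papilla sum came from Trps1, Prlr, Vcan and Ptch1, also read at 17.0 to 107 CPM in inguinal libraries. It therefore does not show how papilla RNA was divided between the dermal libraries. Corin had 10 and 3 reads in dermal libraries 1 and 2, and Wif1 had 9 and 19. The epithelial adhesion list was higher in dermal library 1, at 8.74 against 3.13 CPM.

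The members lie mostly in gene clusters. In GENCODE M21 on GRCm38, the type I keratins read here lie on chromosome 11, from Krt222 (99232761 to 99244085) to Krt17 (100256217 to 100261029). The type II keratins lie on chromosome 15, from Krt80 (101347444 to 101370162) to Krt8 (101996698 to 102004482). Desmoglein and desmocollin genes share a cluster on chromosome 18, from Dsc3 (19960930 to 20002351) to Dsg2 (20558074 to 20604521). Dsp lies on chromosome 13 (38151294 to 38198577), Tchh on chromosome 3 (93442330 to 93449077), Trp63 on chromosome 16 (25683763 to 25892102) and Pkp4 on chromosome 2 (59160850 to 59355208). Dsp, Tchh, Krt5, Krt75 and Trp63 overlap an annotated gene on the opposite strand, and reads of such pairs may not be separable. Of the 50-base stretches of their transcripts, Krt25 and Krt27 share 10.9% and 11.1% with other genes, each mainly with the other, Krt14 shares 13.9%, mainly with Krt16, and Krt5 shares 8.52%, mainly with Krt6a.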

How the data were processed

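RNA-seq was available for 2 dermal and 2 inguinal adipocyte libraries, grouped by their titles. The deposited values are a signal: CPM per gene, scaled by the authors to the library total and by a further factor, since the columns sum to between 960745 and 1074951. Per the submitters' processing notes, TopHat2 2.0.12, Picard 1.127, featureCounts of Subread 1.4.6, edgeR and mm10 were used. Roles, settings and the strand option are not given in the sources used here. Values were whole multiples of 1 step per column for 100% of genes (tolerance 0.001), which gave the reads. Genes with 1 CPM in at least 2 libraries were tested by limma 3.58.1 in R 4.3.3, using log2(CPM + 0.5), a trend of variance on intensity, Benjamini-Hochberg adjusted two-sided p-values and a cutoff of 0.05. Because of the added constant, fold changes of low genes are understated. edgeR 4.0.16 and DESeq2 1.42.0 on the recovered reads were alternatives. Ratios of reads carry exact 95% binomial intervals, which cover counting error only. Whether libraries are from separate animals is not in the labels, so p-values reflect only the spread between libraries, which may be technical. Members, classes and gene lists were chosen with earlier results of these data known. Every member at 1 CPM in a library is named, and of each list the 2 most abundant genes and the 2 calls with the smallest adjusted p. Exon lengths came from GENCODE M21, of the same build as mm10. For Krt85 no length or position was used. Of the hemidesmosome list, 1 gene is not reported here and was left out of its counts.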

Additional observations from a re-analysis of the deposited data

How the results depend on the processing

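The number of members called higher in dermal libraries (11) was 9 to 13 under other pseudocounts, scalings, a filter at 10 reads (added after seeing the data), no filter, no intensity trend, edgeR and DESeq2. It was 3 with a filter at 5 CPM, which leaves 8 members. With 1 library left out in turn it ranged from 7 (without dermal library 1) to 12, and the number higher in inguinal libraries from 1 to 2 (without inguinal library 1). Over the whole table the calls ranged from 339 to 1212 for dermal and from 568 to 1470 for inguinal libraries with 1 library left out, the lowest without dermal library 2 and without dermal library 1. edgeR called 923 and 1133 genes and DESeq2 823 and 1162. With the replicate number as a block, 14 and 3 members and 2342 and 2384 genes were called. The members it added were Jup (adjusted p = 0.00078), Pkp2 (0.0072), Pkp3 (0.0277), Krt222 (0.0334) and Sfn (0.038). The labels give no reason to pair the libraries, and the differences of libraries 1 and 2 correlated between depots across genes (r = 0.46). Some members that did not pass changed sign. Krt10 was -0.0474 with quantile normalization and ranged from -0.26 to 0.31 with 1 library left out, Krt36 from -0.11 to 0.35 and Ppl from -1.11 to 0.81, with Ppl at 0.18 in edgeR and 0.17 in DESeq2. The broad desmosome sum, -0.85 as a log2 ratio of dermal to inguinal, was 0.0522 without Pkp4. The simple and mucosal sum, -0.35, was 1.71 without Krt222 and ranged from -0.64 to 0.0138 with 1 library left out. Without Tchh and Krt79 (added after seeing the data) the hair follicle sum was 4.08, against 3.01. The causes of these changes were not tested. Depth limits the low members: 18 had at most 3 reads in each depot.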
